A study of Mus musculus with 4 samples.

Results

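Pdcd1-positive Cd8-gated T cells were compared with Pdcd1-positive Cd4-gated T cells from the pancreatic islets of NOD mice. The cells were chosen by their UMIs, the molecule tags with which captured RNA is counted: 500 or more genes, 10% or less mitochondrial UMIs, at least 1 Pdcd1 UMI and no Foxp3 UMI. The Cd8 gate asked for Cd8a or Cd8b1 with Cd4 at 0, and the Cd4 gate for Cd4 with both Cd8 genes at 0. Of 3809 cells kept from 4150 barcodes, 485 met the rule: 120 in the Cd8 gate (77 at 8 weeks and 43 at 16 weeks of age) and 365 in the Cd4 gate (224 and 141). NOD is an inbred strain in which autoimmunity destroys the beta cells, and all mice were female and labelled pre-diabetic. Live cells positive for TCR beta were sorted from the islets, and each age has 1 library of gene expression and 1 of rearranged receptors, 4 in all. The labels do not say how many mice went into a library, and no treatment, transgene or engineered allele is named. Each library held both gates, so lineages were compared within a library, whereas the ages rest on 1 library each and were not tested against each other.

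Pdcd1 encodes PD-1, a receptor that dampens T cell receptor signalling and is induced by antigen. On Cd8 cells under lasting antigen exposure it accompanies exhaustion, a state in which further inhibitory receptors are added and a Tcf7-expressing stem-like subset keeps the population going. On Cd4 cells it also marks follicular helper cells and cells made unresponsive to antigen, a state called anergy. In the islets of NOD mice both lineages recognise beta cell proteins.

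Levels are given as CPM, the UMIs of a gene per 1000000 UMIs of a gate's summed cells, with the 8-week value before the 16-week value. Pdcd1, the gene used to choose the cells, was at 395 and 329 CPM in the Cd8-gated and 392 and 396 in the Cd4-gated cells, so its summed level was close between the gates at 8 weeks. Exactly 1 Pdcd1 UMI, the lowest number the rule admits, was seen in 35 of 77 and 27 of 43 Cd8-gated cells and in 94 of 224 and 62 of 141 Cd4-gated cells. Another 204 and 263 Cd8-gated and 434 and 508 Cd4-gated cells had no Pdcd1 UMI. A further 105 and 81 Pdcd1-positive cells had a Foxp3 UMI, 24 and 28 had UMIs of both lineages and 84 and 51 had none. Only 1 lineage UMI was seen in 3 of 77 and 4 of 43 Cd8-gated cells. The same held for 72 of 224 and 52 of 141 Cd4-gated cells, and no alternative asked for more than 1 Cd4 UMI. Cd3e, part of the T cell receptor complex, was at 1994 and 1758 CPM in the Cd8-gated and 2086 and 2060.4 in the Cd4-gated cells. The Cd8 gate held medians of 5584 and 5440 UMIs per cell and the Cd4 gate 5358 and 4886, against 2714.5 to 3070 in cells without a Pdcd1 UMI. At least 2 productive beta chains, found in doublets and in cells with dual receptors, were present in 15.1% and 12.8% of Cd8-gated cells with a beta chain and in 16.5% and 25.4% of Cd4-gated ones. The RNA libraries shared 5 cell barcodes.

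In Pdcd1-positive Cd8-gated cells 10 of 13 tested cytotoxic genes were called higher than in Cd4-gated cells and 7 of 12 follicular helper genes lower. Of all genes tested, 2.43% were called higher and 3.24% lower. The lists were chosen with earlier results of these data known, so their counts are a description and not a test. UMIs were summed per library and gate (579760 and 324797 in the Cd8 gate, 1613725 and 931368 in the Cd4 gate) and the 4 sums were tested with edgeR's quasi-likelihood test, with the library as a block and Benjamini-Hochberg adjustment. A gene was called when its adjusted p was under 0.05 and its log2 ratio of Cd8-gated over Cd4-gated had the same sign in each library. Of 8435 genes with 20 or more UMIs, 205 were called higher in Cd8-gated cells (2.43%) and 273 lower (3.24%). The genes that define the gates were left out. The fit had 1 residual degree of freedom and edgeR shared 1 spread over all genes (biological coefficient of variation 0.0868). Fitted log2 ratios are given ± SE. As the spread is shared, the SE and adjusted p of a gene do not reflect how far its own ratios in the 2 libraries lie apart. DESeq2, which fits the spread otherwise, called 34 higher and 40 lower, all of them also called by edgeR, and gave no adjusted p for 3271 genes. A difference of 2-fold or more in both libraries was seen for 153 genes on the higher side (1.81%) and 248 on the lower side (2.94%). The Cd4 gate holds more UMIs, so genes seen mainly there pass the minimum of 20 more easily. With no minimum the 2-fold counts were 872 higher and 412 lower. The balance of the 2 sides, also within a list, therefore depends on the filter and is not read as a lineage difference.

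**Figure D1:**
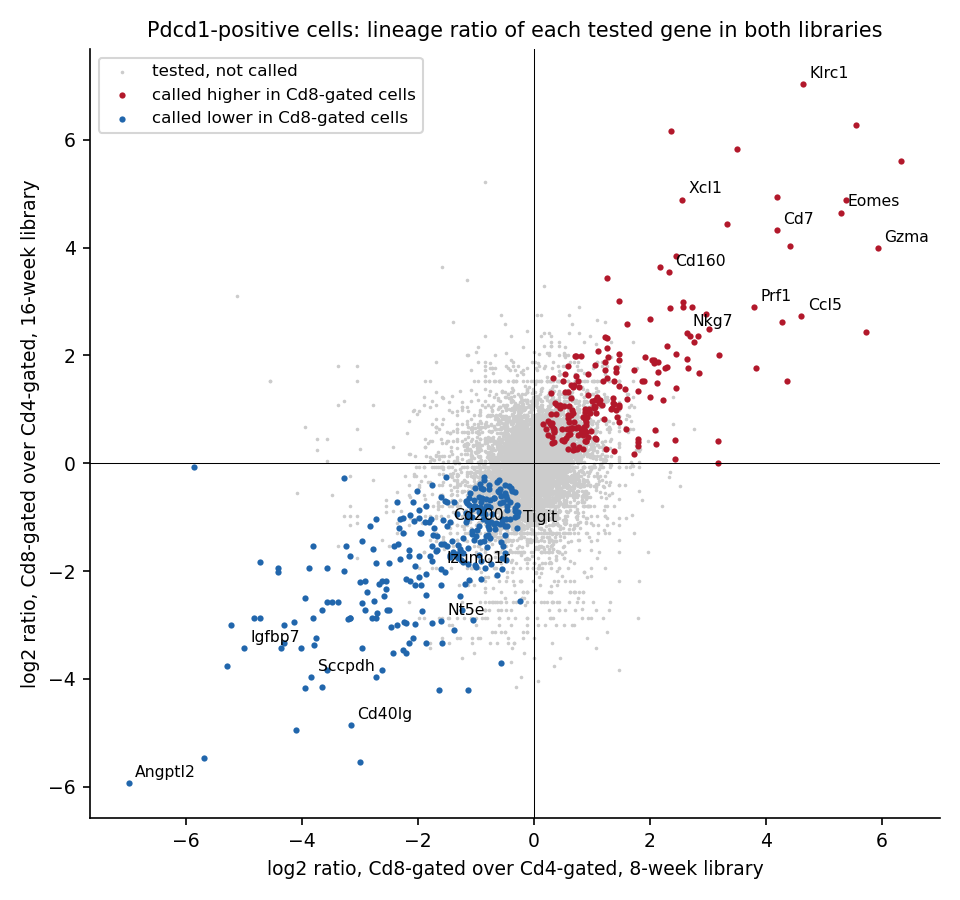
Log2 ratio of CPM, Cd8-gated over Cd4-gated Pdcd1-positive cells, in the 8-week (horizontal) and 16-week library (vertical), 1 point per tested gene. Red points are the 205 genes called higher and blue points the 273 called lower. Called genes have the same sign in both libraries because the call asks for it, and 0.5 UMI was added to each sum so that genes with no UMI in a gate can be drawn.

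Of the gene lists, the cytotoxic genes held the most calls on the Cd8 side: 10 of 13 tested members were called higher and none lower, with a median log2 ratio of 2.86 at 8 and 1.67 at 16 weeks, against -0.00 and -0.03 over all genes tested. Gzma, which encodes the protease granzyme A, was at 245 and 58.5 CPM in the Cd8-gated and 3.72 and 3.22 in the Cd4-gated cells (log2 ratio 5.58 ± 0.34, adjusted p = 2.64e-57). Both Cd8-gated levels lay above both Cd4-gated levels, and at 16 weeks 1 cell held 57.9% of the 19 Cd8-gated UMIs. Nkg7, a granule membrane protein, was at 2109 and 1974 CPM in the Cd8-gated and 339.6 and 368 in the Cd4-gated cells (log2 ratio 2.56 ± 0.13, adjusted p = 9.33e-80). Prf1, the pore-forming perforin, was at 37.9 and 58.5 CPM in the Cd8-gated and 2.48 and 7.52 in the Cd4-gated cells (log2 ratio 3.38 ± 0.46, adjusted p = 2.14e-11), and Gzmk, granzyme K, at 324 and 366 against 44.6 and 115 (log2 ratio 2.29 ± 0.17, adjusted p = 2.64e-39). Gzmb, granzyme B, was less even: 119 and 27.7 CPM in the Cd8-gated and 13.01 and 21.5 in the Cd4-gated cells, so that the 16-week gates were close (log2 ratio 0.41, 95% counting interval -0.95 to 1.57, against 3.17 at 8 weeks). Its DESeq2 adjusted p was 1.000. DESeq2 kept 7 of the 10 calls: Gzma, Gzmk, Prf1, Nkg7, Ctsw, Klrd1 and Klrk1. Fasl, Lamp1 and Serpinb9 were not called, and Gzmm and Tyrobp had too few UMIs to be tested.

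Lectin-type receptors of the NK gene complex were among the most different genes, and 5 of them, taken from 3 of the lists, are given together. Klrd1 encodes CD94 and Klrc1 encodes NKG2A, which pair into an inhibitory receptor. Klrc1 had 103 and 68 UMIs in the Cd8-gated cells, in 26 and 20 cells, and 11 and 1 in the Cd4-gated cells (log2 ratio 5.33 ± 0.30, adjusted p = 1.10e-65). Klrd1 was at 164 and 151 CPM in the Cd8-gated and 14.3 and 2.15 in the Cd4-gated cells (log2 ratio 4.07 ± 0.28, adjusted p = 3.45e-45). Klrk1, the activating receptor NKG2D, was at 58.6 and 80.0 CPM in the Cd8-gated and 5.58 and 3.22 in the Cd4-gated cells (log2 ratio 3.81 ± 0.39, adjusted p = 5.51e-20), with 77.8% and 66.7% of its few Cd4-gated UMIs in 1 cell. Klre1 was at 72.4 and 114 CPM in the Cd8-gated and 3.72 and 3.22 in the Cd4-gated cells (log2 ratio 4.60 ± 0.38, adjusted p = 3.51e-30). Klrc2, an activating partner of CD94, had 8 and 13 UMIs in Cd8-gated and 0 in Cd4-gated cells, at least 7.42-fold and 12.4-fold higher when the empty gate is set at 3 UMIs. In build mm10 with the GENCODE M21 annotation these 5 genes lie close together on chromosome 6, from Klre1 (129577905 to 129585827, plus strand) to Klrc1 (129666015 to 129678973, minus strand). Of other receptors that mark NK cells, Ncr1, Klrb1c and Klra7 had no UMI in Cd8-gated cells. Klrc1 and Klrc2 are related in sequence, so reads may be split between them.

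Cd7, an immunoglobulin-family surface protein, had 398 and 213 UMIs in Cd8-gated and 60 and 30 in Cd4-gated cells (log2 ratio 4.28 ± 0.17, adjusted p = 1.45e-128). Plek, the platelet and leukocyte protein pleckstrin, was at 37.9 and 52.3 against 6.82 and 3.22 CPM (log2 ratio 2.98 ± 0.44, adjusted p = 2.29e-09). Amica1, the adhesion molecule JAML, was at 84.5 and 46.2 against 10.5 and 6.44 (log2 ratio 2.96 ± 0.34, adjusted p = 1.48e-15). For all 3 both Cd8-gated levels lay well above both Cd4-gated levels.

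Secreted factors split by lineage. Of 12 tested chemokine and cytokine genes, 2 were called higher and 5 lower. Ccl5, a chemokine that attracts T cells and myeloid cells, was at 7070.2 and 8966 CPM in the Cd8-gated and 288 and 1355 in the Cd4-gated cells (log2 ratio 3.67 ± 0.14, adjusted p = 6.63e-149). The Ccl5 ratio was 4.62 at 8 and 2.73 at 16 weeks, further apart than the SE of the fit. At 16 weeks 1 cell held 27.7% of the Cd4-gated UMIs. Ccl3 was called (log2 ratio 1.51 ± 0.19, adjusted p = 1.73e-12), but its level was 142 and 142 CPM in the 16-week gates, so the call rests on the 8-week library (log2 ratio 3.18, against 0.01 at 16 weeks), and DESeq2 did not make it (adjusted p = 1.000). Ccl4 had an adjusted p of 9.48e-09 but opposite signs in the libraries (1.71 and -0.04) and was not called. Xcl1, a chemokine that attracts cross-presenting dendritic cells, was at 355 and 619 CPM in the Cd8-gated and 60.1 and 20.4 in the Cd4-gated cells (log2 ratio 3.41 ± 0.17, adjusted p = 1.80e-82), with 49.3% of the 16-week Cd8-gated UMIs in 1 cell. Its ratio was 2.56 at 8 and 4.89 at 16 weeks, again further apart than the SE. Ifng (110.4 and 92.4 against 84.9 and 85.9 CPM) and Tnf (55.2 and 55.4 against 75.6 and 61.2), the inflammatory cytokines both lineages can make, were not called. On the Cd4 side Il21, the cytokine of follicular helper cells, had 122 and 99 UMIs against 2 and 4 (log2 ratio -3.65 ± 0.40, adjusted p = 2.80e-17). Tnfsf8, CD30 ligand, was at 22.4 and 27.7 against 181 and 176 CPM (log2 ratio -2.84 ± 0.26, adjusted p = 4.47e-25). Tnfsf11, RANK ligand, was at 15.5 and 18.5 against 113 and 146 (log2 ratio -2.87 ± 0.30, adjusted p = 4.53e-19). Il10 had no UMI in Cd8-gated cells and 17 and 25 in Cd4-gated cells, at least 2.04-fold and 2.91-fold lower with 3 UMIs set for the empty gate.

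Inhibitory receptors other than Pdcd1 did not move as 1 group. Of 13 tested, 3 were called higher in Cd8-gated cells (Cd160, Klrg1 and Klrc1), 4 lower (Tigit, Ctla4, Btla and Cd200), and Lag3, Havcr2, Cd200r1, Entpd1, Cd96 and Vsir were not called. Cd160, which binds the same ligand as BTLA, was at 119 and 105 CPM in the Cd8-gated and 23.5 and 8.59 in the Cd4-gated cells (log2 ratio 2.71 ± 0.27, adjusted p = 4.68e-21). Klrg1 had 5 and 15 UMIs against 5 and 5, with 46.7% of the 16-week Cd8-gated UMIs in 1 cell, and its call was lost when cells with 2 beta chains were left out (adjusted p = 0.0775) and when cells with B cell, myeloid or acinar UMIs were (0.186). Cd200, a ligand that restrains myeloid cells, was at 129 and 154 CPM in the Cd8-gated and 369 and 349 in the Cd4-gated cells (log2 ratio -1.34 ± 0.16, adjusted p = 6.35e-14). Ctla4, which competes with CD28 for its ligands, was at 86.2 and 92.4 CPM in the Cd8-gated and 154 and 239 in the Cd4-gated cells (log2 ratio -1.04 ± 0.19, adjusted p = 3.62e-06). Tigit was at 248 and 123 CPM in the Cd8-gated and 304 and 287 in the Cd4-gated cells (log2 ratio -0.60 ± 0.16, adjusted p = 0.00399). Btla was at 10.3 and 21.6 CPM in the Cd8-gated and 46.5 and 48.3 in the Cd4-gated cells (log2 ratio -1.67 ± 0.38, adjusted p = 0.000515). For all 4 both Cd8-gated sums lay below both Cd4-gated sums, with the 8-week Cd8-gated Tigit level nearest to the Cd4 side. DESeq2 called Cd160, Klrc1 and Cd200 only, and its adjusted p was 0.891 for Tigit, 0.251 for Ctla4 and 0.995 for Btla. With edgeR, the Tigit call was lost at 2 or more Pdcd1 UMIs (adjusted p = 0.298) and without the library block (0.0528), and those of Ctla4 and Btla were lost with cells reduced to 1700 UMIs (0.414 for each).

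Lag3, a receptor for MHC class II, was at 241 and 299 CPM in the Cd8-gated and 356 and 364 in the Cd4-gated cells, lower on the Cd8 side in both libraries without passing the test (log2 ratio -0.41 ± 0.15, adjusted p = 0.0814). Havcr2, which encodes TIM-3 and is a marker of late exhaustion, had 4 and 11 UMIs in Cd8-gated and 17 and 9 in Cd4-gated cells, with opposite signs in the libraries (log2 ratio 0.73 ± 0.54, adjusted p = 0.580). Entpd1, the ectoenzyme CD39, was at 22.4 and 49.3 against 17.4 and 27.9 CPM (log2 ratio 0.63 ± 0.35, adjusted p = 0.402). Cd96 was at 43.1 and 43.1 against 62.6 and 52.6, Vsir at 51.7 and 43.1 against 80.6 and 81.6 and Cd200r1 at 3.45 and 0 against 9.91 and 18.3. Cd244, Lair1, Cd101, Ceacam1 and Cd300a had too few UMIs to be tested, and 1 further list member, Pvrig, was not found by symbol.

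**Figure D2:**
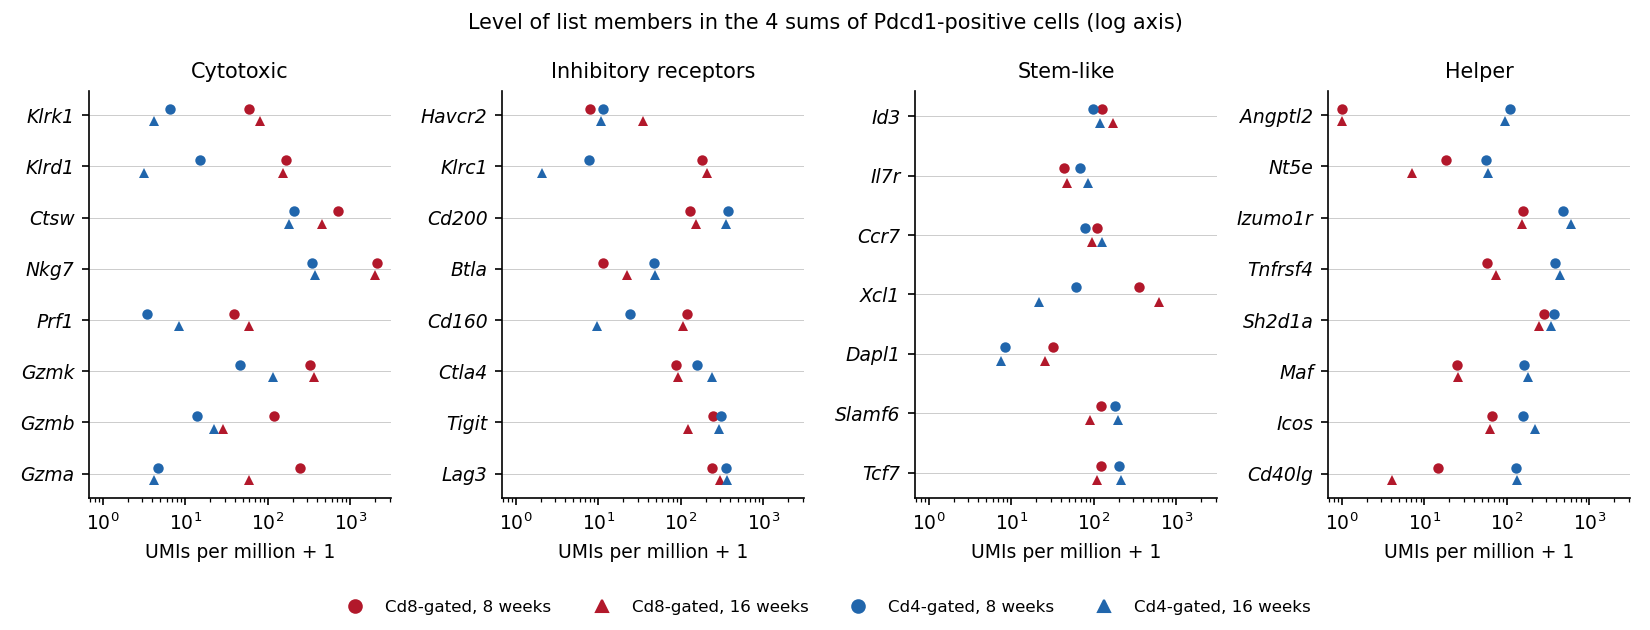
Summed level of chosen list members in the 4 sums of Pdcd1-positive cells, in CPM plus 1 on a log axis. Red marks the Cd8 gate, blue the Cd4 gate, circles 8 weeks and triangles 16 weeks. Cytotoxic genes lie to the right and helper genes to the left in the Cd8 gate, the 16-week Gzmb levels nearly coincide, and the gates overlap for Ccr7.

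Detection at equal depth was compared within each library after reducing every cell to 1700 UMIs, which left out 4 and 4 Cd4-gated cells and no Cd8-gated cell. Shares are given as the expected value over all possible draws of 1700 UMIs, a choice made after single random draws were seen to differ, and intervals of differences cover counting error of cells only. Cd160 was detected in 18.3% of Cd8-gated and 2.77% of Cd4-gated cells at 8 weeks and in 16.5% and 2.29% at 16 weeks, differences of 15.5 (7.79 to 25.7) and 14.2 (5.03 to 28.0) percentage points. Cd200 went the other way, with 16.5% against 40.8% and 19.1% against 38.3%, differences of -24.3 (-33.7 to -12.6) and -19.2 (-31.5 to -3.14) points. Tigit was detected in 27.5% against 37.1% and 18.8% against 35.9%, and only the 16-week difference of -17.1 points lay beyond counting error (-29.3 to -1.18, against -20.5 to 2.87 at 8 weeks). Ctla4 was detected in 12.6% against 20.4% and 15.5% against 26.9%, with intervals that reach 2.59 and 3.74 points above 0. Btla, at 2.03% against 7.99% and 5.65% against 7.74%, did not differ beyond counting error.

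Lag3 was detected in 32.9% of Cd8-gated and 39.2% of Cd4-gated cells at 8 weeks and in 38.1% and 34.1% at 16 weeks. Those differences of -6.35 (-17.9 to 6.36) and 4.01 (-11.4 to 20.7) points had opposite signs and intervals that hold 0. Havcr2 was rare in every gate (1.31% and 1.48%, then 3.38% and 1.08%). In 1 random draw it was seen in 0 of 77 Cd8-gated cells at 8 weeks, which allows a share of up to 3.90% (3 cells of the total). Without reducing the depth the shares were higher: Lag3 was detected in 64.9% of Cd8-gated and 61.6% of Cd4-gated cells at 8 weeks and in 65.1% and 53.2% at 16 weeks, and Cd160 in 40.3% and 7.59%, then 34.9% and 4.96%. As a background, Ccr7-positive cells without a Pdcd1 UMI (112 to 274 per gate, medians of 2986 to 3283 UMIs), Ccr7 being a receptor of naive and central memory cells, had Lag3 in 2.61% to 8.42% of cells at 1700 UMIs, Tigit in 1.79% to 7.43% and Cd200 in 1.31% to 9.90%. Cd160 was seen in 3.57% and 1.31% of these cells in the Cd8 gate and in 0 of 202, which by the same rule allows up to 1.49%, and 1.82% in the Cd4 gate, against 2.77% and 2.29% of the Cd4-gated Pdcd1-positive cells.

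**Figure D3:**
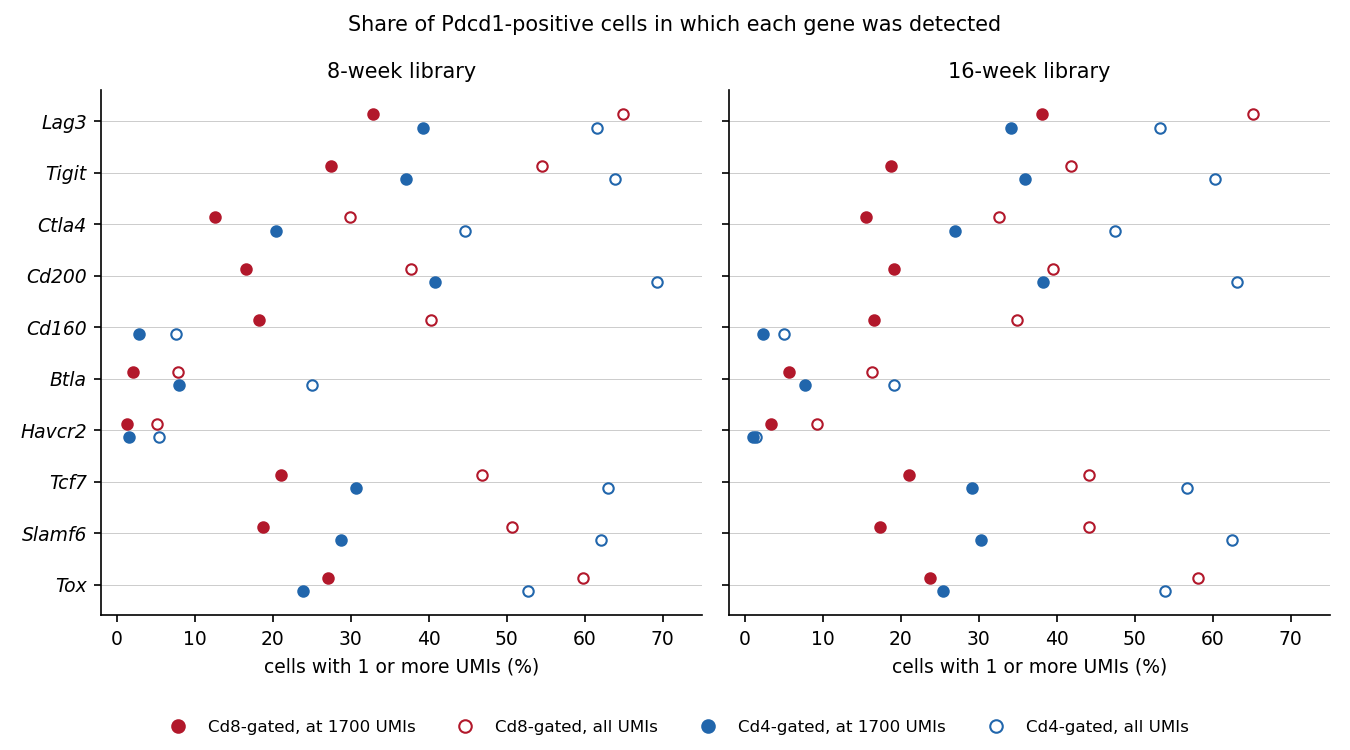
Share of Pdcd1-positive cells with at least 1 UMI of each gene, in percent, in the 8-week (left) and 16-week library (right). Filled points are expected shares at 1700 UMIs per cell, open points use all UMIs, red is the Cd8 gate and blue the Cd4 gate. At 1700 UMIs Cd160 is the only receptor plotted with the larger share in the Cd8 gate at both ages, and Cd200, Tigit and Ctla4 have the larger share in the Cd4 gate.

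Receptors were also counted per cell, over Lag3, Tigit, Havcr2, Ctla4, Cd160, Cd244, Btla and Cd200. At 1700 UMIs, 33.6% of Cd8-gated and 45.8% of Cd4-gated cells held 2 or more of the 8 at 8 weeks, and 33.3% and 43.9% at 16 weeks. The differences of -12.2 (-23.8 to 0.603) and -10.6 (-25.4 to 6.36) points had the same sign at both ages and intervals that hold 0. The mean number of receptors detected was 1.119 and 1.170 in Cd8-gated against 1.498 and 1.463 in Cd4-gated cells. At least 1 receptor was detected in 65.2% against 78.2% at 8 weeks, a difference of -12.99 points (-25.2 to -1.65), and in 64.9% against 75.1% at 16 weeks (-26.5 to 4.55). These counts depend on which genes are listed. Klrc1, the receptor furthest to the Cd8 side, is not among the 8. Cd200, a ligand that had the largest share difference to the Cd4 side at both ages, is among them. Klrc1 itself was detected in 21.4% and 25.8% of Cd8-gated and 0.549% and 0.202% of Cd4-gated cells.

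Stem-like genes were also mixed: of 15 tested, 2 were called higher in Cd8-gated cells (Dapl1 and Xcl1), 2 lower (Tcf7 and Slamf6), and 11 were not called. Tcf7, the transcription factor TCF-1 (chromosome 11, 52252371 to 52283014, minus strand), was at 121 and 108 CPM in the Cd8-gated and 199 and 210.4 in the Cd4-gated cells (log2 ratio -0.79 ± 0.18, adjusted p = 0.000463). Slamf6, a surface marker of the Tcf7-expressing subset, was at 121 and 89.3 CPM in the Cd8-gated and 178 and 194 in the Cd4-gated cells (log2 ratio -0.75 ± 0.18, adjusted p = 0.00164). Both Cd8-gated sums lay below both Cd4-gated sums for each gene. DESeq2 called neither (adjusted p = 0.740 and 0.922), and neither was called once every cell was reduced to 1700 UMIs (adjusted p = 0.585 and 0.291). Dapl1 had 18 and 8 UMIs against 12 and 6 (log2 ratio 2.02 ± 0.49, adjusted p = 0.00144), and its call was lost at 2 or more Pdcd1 UMIs (adjusted p = 0.614) and without cells holding other cell types' UMIs (0.135). Among members that were not called, Id3 was at 124 and 172 against 96.7 and 118 CPM, Lef1 at 89.7 and 86.2 against 74.98 and 151, Ccr7 at 109 and 95.4 against 76.2 and 125, Il7r at 43.1 and 46.2 against 67.5 and 83.7, S1pr1 at 60.4 and 52.3 against 81.8 and 78.4, Foxp1 at 62.1 and 98.5 against 71.3 and 97.7, Bcl2 at 69.0 and 49.3 against 57.6 and 65.5, Satb1 at 22.4 and 46.2 against 13.01 and 25.8 and Myb at 15.5 and 18.5 against 9.30 and 19.3. Bach2 had 0 and 1 against 12 and 7 UMIs. Klf2, a factor that keeps cells recirculating, was at 310.5 and 231 CPM in the Cd8-gated and 211 and 380.1 in the Cd4-gated cells, higher on the Cd8 side at 8 weeks and on the Cd4 side at 16 weeks.

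In shares of cells, Tcf7 was detected in 21.0% of Cd8-gated and 30.7% of Cd4-gated cells at 8 weeks and in 21.0% and 29.1% at 16 weeks, at 1700 UMIs. The differences of -9.68 (-19.6 to 2.16) and -8.05 (-20.5 to 7.84) points had the same sign and intervals that hold 0. Single draws scattered around these values: 1 draw gave 19.5% and 37.3% at 8 weeks and 27.9% and 26.3% at 16 weeks, and the second draw gave differences of -3.83 and -4.35 points. With all UMIs Tcf7 was detected in 46.8% against 62.9% at 8 weeks, a difference of -16.2 points (-28.5 to -3.39), and in 44.2% against 56.7% at 16 weeks, a difference of -12.6 (-28.4 to 4.31). Tcf7 together with at least 1 of the 8 receptors, the combination used to describe stem-like exhausted cells, was found in 13.9% against 23.5% (-18.1 to 1.15 points) and in 13.6% against 19.2% (-16.0 to 8.86). Slamf6 was detected in 18.7% against 28.7% and 17.3% against 30.3%. Tox, which drives the exhaustion programme, was detected in 27.1% against 23.9% and 23.7% against 25.4%, and in 3.27% to 8.76% of the Ccr7-positive cells without a Pdcd1 UMI.

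Transcription factors of effector and exhausted cells gave 3 calls on the higher side (Nr4a2, Eomes and Batf) and 2 on the lower side (Nfatc1 and Ikzf2) among 17 tested. Eomes, a T-box factor of cytotoxic cells, had 63 and 74 UMIs in Cd8-gated and 4 and 8 in Cd4-gated cells (log2 ratio 5.00 ± 0.32, adjusted p = 8.69e-53). Tbx21, its relative T-bet, was at 44.8 and 24.6 against 29.1 and 32.2 CPM and was not called (log2 ratio 0.31 ± 0.32, adjusted p = 0.731). Nr4a2, an orphan nuclear receptor induced by receptor signalling, was at 109 and 123 CPM in the Cd8-gated and 24.8 and 44.0 in the Cd4-gated cells (log2 ratio 1.86 ± 0.24, adjusted p = 1.53e-12), whereas Nr4a1 (145 and 145 against 111 and 186) and Nr4a3 (10.3 and 36.9 against 12.4 and 27.9) were not called. Batf, an AP-1 family factor, was at 309 and 286 CPM in the Cd8-gated and 206 and 199.7 in the Cd4-gated cells (log2 ratio 0.58 ± 0.15, adjusted p = 0.00315). Tox was at 191 and 163 CPM in the Cd8-gated and 149.96 and 136 in the Cd4-gated cells (log2 ratio 0.34 ± 0.17, adjusted p = 0.315) and Tox2 at 88.0 and 70.8 against 110.3 and 109.5 (log2 ratio -0.41 ± 0.21, adjusted p = 0.329), and neither was called. Nfatc1 was at 91.4 and 123 against 188 and 215 (log2 ratio -0.91 ± 0.18, adjusted p = 4.73e-05) and Ikzf2, Helios, at 124 and 73.9 against 187 and 164 (log2 ratio -0.76 ± 0.19, adjusted p = 0.00181). DESeq2 made the Eomes and Nr4a2 calls and not those of Batf, Nfatc1 or Ikzf2 (adjusted p = 0.880, 0.490 and 0.925), and with cells reduced to 1700 UMIs edgeR called Eomes and Nfatc1 but not Nr4a2 (adjusted p = 0.136), Batf (0.725) or Ikzf2 (0.107). Of the lineage factors, Runx3, which maintains the Cd8 lineage, was called higher at 84.5 and 111 against 32.8 and 51.5 (log2 ratio 1.27 ± 0.24, adjusted p = 9.56e-06). Zbtb7b, ThPOK, which directs cells to the Cd4 lineage, had 4 and 1 UMIs against 42 and 33 (log2 ratio -2.36 ± 0.53, adjusted p = 0.000409). Gata3, a factor of helper cells, was the other call on the lower side (log2 ratio -0.87 ± 0.28, adjusted p = 0.0310), and 8 alternatives ended it. DESeq2 called neither Runx3 nor Gata3 and gave no adjusted p for Zbtb7b, and edgeR did not call Runx3 at 1700 UMIs per cell (adjusted p = 0.0726).

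Genes of follicular helper cells were lower in Cd8-gated cells: 7 of 12 tested were called lower and none higher. Angptl2, a secreted angiopoietin-like protein, had 175 and 87 UMIs in 79 and 44 Cd4-gated cells and none in Cd8-gated cells, at least 21.0-fold and 10.1-fold lower with 3 UMIs set for the empty gate, yet without a DESeq2 call (adjusted p = 1.000). Maf, a factor that promotes Il21, was at 24.1 and 24.6 CPM in the Cd8-gated and 162 and 179 in the Cd4-gated cells (log2 ratio -2.76 ± 0.26, adjusted p = 2.88e-23). Icos, a costimulatory receptor, was at 65.5 and 61.6 CPM in the Cd8-gated and 157 and 219 in the Cd4-gated cells (log2 ratio -1.47 ± 0.21, adjusted p = 1.79e-10). Cxcr5, the receptor that leads cells to B cell follicles, was at 12.1 and 12.3 against 57.0 and 45.1 (log2 ratio -2.07 ± 0.39, adjusted p = 8.19e-06). Sostdc1 had 0 and 9 UMIs against 19 and 78, all 9 of the Cd8-gated ones in 1 cell. Cebpa and Ascl2 had no UMI in Cd8-gated cells against 27 and 11 and 29 and 5 in Cd4-gated cells. Bcl6, Sh2d1a, Pou2af1, Asap1 and Slamf1 were not called. DESeq2 called Maf and Icos of the 7, and the Icos call was lost with cells reduced to 1700 UMIs (edgeR adjusted p = 0.134).

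Costimulation and help genes gave 2 calls on the higher side and 5 on the lower side of 11 tested. Cd40lg, with which helper cells license B cells and dendritic cells, had 210 and 124 UMIs in Cd4-gated and 8 and 1 in Cd8-gated cells (log2 ratio -3.69 ± 0.34, adjusted p = 4.03e-25). Tnfrsf4, OX40, was at 56.9 and 73.9 CPM in the Cd8-gated and 387 and 443 in the Cd4-gated cells (log2 ratio -2.66 ± 0.19, adjusted p = 1.01e-41). Cd28 (log2 ratio -0.74 ± 0.18, adjusted p = 0.00108), Cd5 (log2 ratio -0.89 ± 0.16, adjusted p = 2.74e-06) and Tnfrsf18, GITR (log2 ratio -0.84 ± 0.19, adjusted p = 0.000453), were lower by smaller ratios, none of them with a DESeq2 call. Tnfrsf9, 4-1BB, was higher at 86.2 and 194 against 53.9 and 73.0 (log2 ratio 1.07 ± 0.21, adjusted p = 1.94e-05). DESeq2 did not call Tnfrsf9 (adjusted p = 0.468), and at 1700 UMIs per cell edgeR called neither it (0.110) nor Cd28 (0.610), Cd5 (0.0790) or Tnfrsf18 (0.155). Crtam, an adhesion receptor of cytotoxic cells, had 22 and 15 UMIs against 1 and 1 (log2 ratio 5.49 ± 0.67, adjusted p = 6.63e-14).

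Of 10 tested anergy genes, 3 were called lower in Cd8-gated cells and none higher. Izumo1r, folate receptor 4, a marker of anergic and regulatory Cd4 cells, was at 155 and 151 CPM in the Cd8-gated and 474 and 596 in the Cd4-gated cells (log2 ratio -1.74 ± 0.16, adjusted p = 1.20e-25). Nt5e, CD73, was at 17.2 and 6.16 against 54.5 and 58.0 (log2 ratio -2.05 ± 0.38, adjusted p = 3.70e-06), without a DESeq2 call (adjusted p = 0.310). Nrp1 was near the threshold (log2 ratio -0.88 ± 0.29, adjusted p = 0.0424), and 11 alternatives ended its call. Dgka, Dgkz, Cblb, Itch, Rnf128, Egr2 and Rgs2, mostly signalling brakes shared by both lineages, were not called. Of 9 tested genes of regulatory cells, Tnfrsf9 was higher and Ctla4, Ikzf2, Il10, Tnfrsf18 and Itgb8 lower, in cells gated on the absence of a Foxp3 UMI. Of these 6 calls DESeq2 made none, and edgeR made none among the 5 genes it could test at 1700 UMIs per cell.

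S100, annexin and galectin genes, which rise in effector and memory cells, were called higher in 8 of 13 cases and lower in none, with median log2 ratios of 0.76 and 0.44. Crip1, a small zinc-binding protein, was at 2046 and 1703 CPM in the Cd8-gated and 931 and 754 in the Cd4-gated cells (log2 ratio 1.18 ± 0.12, adjusted p = 6.29e-19). Lgals1, galectin-1, was at 2589 and 2457 CPM in the Cd8-gated and 1661 and 1063 in the Cd4-gated cells (log2 ratio 0.94 ± 0.12, adjusted p = 2.42e-12), with 26.9% of the 16-week Cd8-gated UMIs in 1 cell. Lgals3 was at 289.8 and 197 against 121 and 65.5 (log2 ratio 1.40 ± 0.17, adjusted p = 8.77e-14). DESeq2 called Crip1, Lgals3 and Vim, and at 1700 UMIs per cell edgeR made 6 of the 8 calls, without S100a10 and Anxa2 (adjusted p = 0.148 and 0.0720). S100a6 had an adjusted p under the threshold but opposite signs in the libraries (1.34 and -0.02).

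Homing genes gave 4 calls on the higher and 1 on the lower side of 13 tested. Cxcr6, a receptor of tissue-resident T cells, was at 238 and 182 CPM in the Cd8-gated and 91.1 and 84.8 in the Cd4-gated cells (log2 ratio 1.30 ± 0.18, adjusted p = 4.76e-11). Itgae, the alpha chain of the integrin that binds E-cadherin, was at 60.4 and 52.3 against 13.6 and 16.1 (log2 ratio 1.99 ± 0.33, adjusted p = 1.17e-07), and Ccr8 went the other way at 15.5 and 12.3 against 52.1 and 41.9 (log2 ratio -1.72 ± 0.38, adjusted p = 0.000311). DESeq2 made the Cxcr6 call alone, and at 1700 UMIs per cell edgeR made those of Cxcr6 and Selplg among 4 tested, with Ccr8 and Itgb7 over the threshold. Of 12 proliferation genes 4 were called higher (Rrm2, Stmn1, Tubb5 and Pcna), none of them by DESeq2. The Tubb5 call was ended by 9 alternatives and that of Pcna by 3, both at 1700 UMIs per cell among them (adjusted p = 0.931 and 0.583). Stmn1 was at 654 and 594 CPM in the Cd8-gated and 423 and 410.1 in the Cd4-gated cells (log2 ratio 0.61 ± 0.13, adjusted p = 0.000194). Of 14 cytokine receptors Ifngr1 was higher (log2 ratio 0.96 ± 0.22, adjusted p = 0.000397) and Il6ra, the IL-6 receptor used by helper cells, lower at 8.62 and 9.24 against 56.4 and 59.1 (log2 ratio -2.65 ± 0.41, adjusted p = 1.41e-08). Among 12 immediate early and stress genes Dusp1, Hspa1a and Hspa1b were lower, by log2 ratios of -0.80, -0.60 and -0.53, the last 2 being near-identical copies. Among 8 interferon response genes Ifi27l2a (-0.61) was lower. DESeq2 made no call among the cytokine receptors, the stress genes or the interferon response genes, and edgeR called neither Il6ra nor Hspa1a at 1700 UMIs per cell (adjusted p = 0.227 and 0.126).

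Several of the genes furthest to the Cd4 side were nearly empty in Cd8-gated cells. Cybb, the NADPH oxidase subunit gp91phox, had 71 and 44 UMIs in 48 and 29 Cd4-gated cells against 1 and 0 (log2 ratio -5.16 ± 0.69, adjusted p = 1.17e-11). Igfbp7, a secreted protein that binds insulin-like growth factors, was at 1.72 and 6.16 against 82.4 and 82.7 CPM (log2 ratio -4.55 ± 0.47, adjusted p = 3.34e-19). Ms4a6c, a tetraspan membrane protein, was at 5.17 and 3.08 against 93.0 and 82.7 (log2 ratio -4.27 ± 0.44, adjusted p = 9.51e-20). Socs2, a suppressor of cytokine signalling, was at 1.72 and 3.08 against 35.3 and 47.2 (log2 ratio -4.05 ± 0.62, adjusted p = 5.81e-09). Sccpdh had 59 and 22 UMIs against 1 and 0, and Ifitm2, an interferon-induced membrane protein, 55 and 66 against 2 and 0. DESeq2 called neither Socs2 nor Ifitm2 (adjusted p = 0.104 and 0.0513), nor did edgeR at 1700 UMIs per cell (0.101 and 0.0588). For others a single cell carried much of the signal: 90.0% of the 80 UMIs of Gm2663 in the 8-week Cd4 gate, 76.6% of the 214 of Spp1 (osteopontin), 71.4% of the 56 of Pdzk1ip1, 61.3% of the 155 of Ccl1 and, at 16 weeks, 57.9% of the 19 of Stfa3 came from 1 cell. Of all 478 calls, 103 had over 25% of a sum of 10 or more UMIs in 1 cell. Leaving out the top cell of each gene from each sum, an alternative added after seeing the data, kept 379 of the calls. It empties a Cd8-gated sum of 1 UMI, so ratios on the Cd4 side can grow. That of Socs2 went to -7.87, so the alternative is a weak check on such genes.

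The lineage difference in Pdcd1-positive cells was then set against the same difference in cells with no Pdcd1 UMI, fitting all 8 sums with an interaction term. Of 438 called genes that could be tested in the Pdcd1-undetected cells, 226 had an adjusted p under 0.05 there too, 218 of them with the same sign. Of all 8822 genes tested in those cells, 3.64% were higher and 3.38% lower on the Cd8 side by that rule. The interaction was called for 43 of 9814 genes, 26 with a higher Cd8 to Cd4 ratio in Pdcd1-positive cells (0.265%) and 17 with a lower one (0.173%). On counts simulated with a wider spread than was fitted here, this test recovered 3% of 2-fold and 53% of 4-fold interactions. The data themselves gave calls below 2-fold, such as a log2 interaction of 0.57 for Vim. How many such interactions were missed is not known. DESeq2 called 11 and 7.

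Cd7 showed the clearest interaction: its log2 ratio was 4.28 in Pdcd1-positive and 2.001 in Pdcd1-undetected cells, an interaction of 2.30 ± 0.20 (SE, adjusted p = 4.94e-10). Its Cd4-gated level was 37.2 and 32.2 CPM with and 89.5 and 69.7 without Pdcd1, and its Cd8-gated level 686 and 656 with and 342 and 262 without. Eomes had ratios of 5.00 and 2.46 (interaction 2.55 ± 0.56, adjusted p = 0.0147). Batf, higher on the Cd8 side in Pdcd1-positive cells, had a ratio of -0.50 in Pdcd1-undetected cells (interaction 1.08 ± 0.22, adjusted p = 0.00600). Lag3, which was not called between Pdcd1-positive gates, was lower in Cd8-gated cells without Pdcd1, where the ratio was -1.55 (adjusted p = 1.74e-18). Its interaction was 1.14 ± 0.24 (adjusted p = 0.00781), without a DESeq2 call. Its Cd8-gated level was 70.9 and 41.5 CPM without and 241 and 299 with Pdcd1, and its Cd4-gated level 142 and 194 without and 356 and 364 with it. Of the 13 S100, annexin and galectin genes 6 had a positive interaction: S100a4, S100a6, S100a10, Lgals1, Crip1 and Vim. The S100a6 interaction was lost under 4 alternatives (50 UMIs, library sizes, DESeq2 and no cells with 2 beta chains) and that of Vim without cells with 2 beta chains and at 1700 UMIs per cell. Lgals1, for instance, had a ratio of 0.94 with and -0.22 without Pdcd1. On the negative side Il6ra had ratios of -2.65 and -0.58. For Tcf7 (interaction -0.58 ± 0.20, adjusted p = 0.284) and Slamf6 (-0.72 ± 0.22, adjusted p = 0.177) no interaction was called. Pdcd1-positive cells carried more UMIs per cell than Pdcd1-undetected cells in both gates, and the part of that depth in the interaction was examined only by reducing cells to 1700 UMIs, which also leaves fewer UMIs in each sum. The interactions of Eomes, Batf and Il6ra were then not called but stood at 2.92, 0.95 and -1.91, and those of Itgb1, Vim and Prss2 were not called at 0.47, 0.46 and 2.26.

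**Figure D4:**
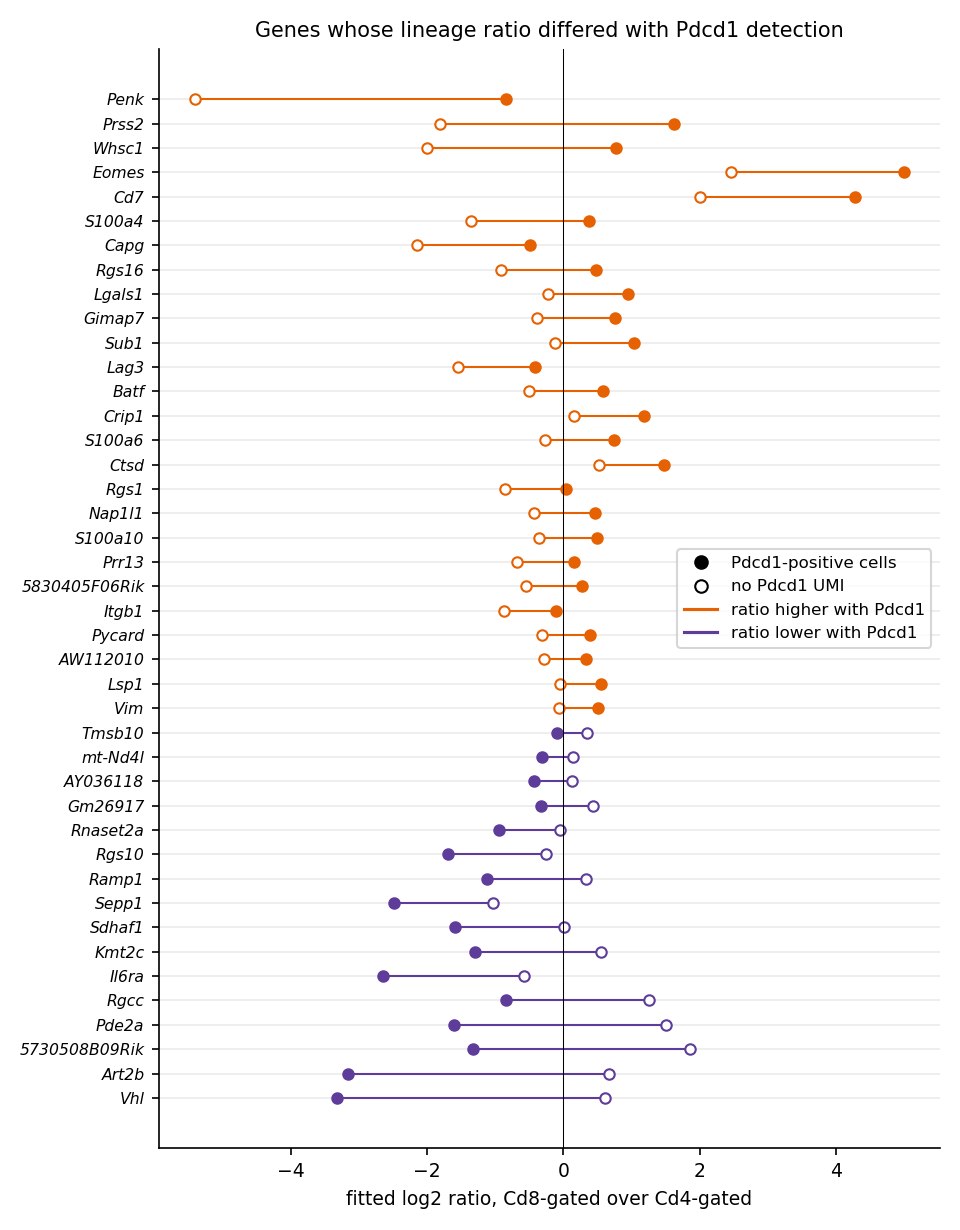
Fitted log2 ratio of Cd8-gated over Cd4-gated cells for 42 of the 43 genes with an interaction call, in Pdcd1-positive cells (filled) and cells with no Pdcd1 UMI (open). Orange lines mark the 26 genes whose ratio was higher in Pdcd1-positive cells and purple lines genes whose ratio was lower. Lag3 lies below 0 in both populations, and Batf, Lgals1 and S100a10 lie above 0 only in Pdcd1-positive cells.

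Markers of other cells were low in both gates. B cell markers summed to 65.5 and 40.0 CPM in the Cd8 gate and 187 and 27.9 in the Cd4 gate, with Cd79a and Ms4a1 at 0 except in the 8-week Cd4 gate. Acinar enzymes of the pancreas summed to 62.1 and 280.2 in the Cd8 gate and 52.1 and 124.5 in the Cd4 gate, and myeloid markers to 29.3 and 52.3 and to 6.82 and 16.1, with Csf1r and Adgre1 at 0 in all 4. NK and innate markers other than Klre1 were at or near 0 in the Cd8 gate, with Ncr1, Klrb1c, Klra7 and Fcer1g at 0 in both libraries. Calls on these lists were Prss2 and Cd68 (higher), Cd74 and Fcer1g (lower) and Klre1. In the 8-week Cd4 gate 1 cell held 86.0% of the Cd74 UMIs. With the top cell left out of each sum, the Cd74 log2 ratio turned from -1.44 to 0.08, and it was also above 0 under 3 other alternatives. Of the other calls here, 4 alternatives ended that of Cd68 and leaving out the top cell that of Fcer1g. In the Cd8 gate 1 cell held 56.3% of the Prss2 UMIs at 8 weeks and 1 cell held 84.6% at 16 weeks. With the top cell left out of each sum, the Prss2 call was lost (edgeR adjusted p = 0.868). The part of such cells in the lineage differences was otherwise tested only by leaving them out. With cells holding B cell, myeloid or acinar UMIs left out, 348 of the 478 calls were made again and 1 called gene changed sign, Cd74. In that setting 120 of the calls were tested and had an adjusted p over the threshold. Of the 24 genes named for the size of their ratios, 23 kept their call, a weak check because they were picked for large ratios in these same cells.

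Receptor clones were read from the matched T cell receptor libraries, a readout the gates did not use. At 8 weeks 23 of 74 Pdcd1-positive Cd8-gated cells with a clonotype (31.1%, 95% Clopper-Pearson interval 20.8 to 42.9) and 67 of 213 Cd4-gated cells (31.5%, 25.3 to 38.2) belonged to clonotypes found in 2 or more cells of the library. That is a difference of -0.374 points (-11.8 to 12.3). At 16 weeks the shares were 4 of 39 (10.3%, 2.87 to 24.2) and 28 of 135 (20.7%, 14.2 to 28.6), a difference of -10.5 points (-20.3 to 4.12). Neither difference lay beyond counting error. These intervals count cells of 1 clone separately and may be too narrow: at 8 weeks 1 clone gave 5 of the Cd8-gated and 1 clone gave 8 of the Cd4-gated cells. Cells with no Pdcd1 UMI were rarely clonal: 1 of 177 and 3 of 235 Cd8-gated cells (0.565% and 1.28%) and 25 of 398 and 19 of 466 Cd4-gated cells (6.28% and 4.08%). The largest clone with cells in the Cd8 gate had 5 and 2 cells and the largest in the Cd4 gate 11 and 4. No clonotype had cells in both gates, among 59 and 38 clonotypes in the Cd8 gate and 180 and 125 in the Cd4 gate. Most cells had a clonotype seen in 1 cell, which cannot lie in both gates. Between the libraries 1 receptor sequence was shared.

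**Figure D5:**
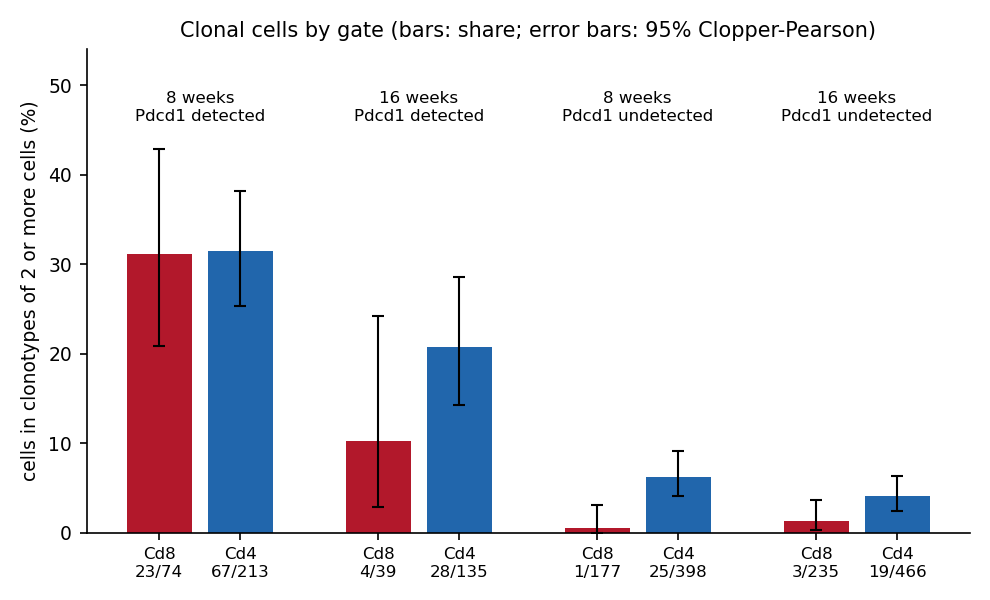
Share of cells with a clonotype found in 2 or more cells of its receptor library, in percent, by gate, age and Pdcd1 detection, with cell numbers below the bars. Error bars are 95% Clopper-Pearson intervals, which count cells of 1 clone separately. The Pdcd1-positive gates stand at 10.3% to 31.5% and the others at 0.565% to 6.28%.

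The gates also differed in the alpha and beta segments they used, in segments picked after their values were seen. TRAV16N was found in 19 of 66 (28.8%, 18.3 to 41.3) and 9 of 31 (29.0%, 14.2 to 48.0) Pdcd1-positive Cd8-gated cells with an alpha chain, against 12 of 199 (6.03%) and 7 of 127 (5.51%) Cd4-gated cells. Counted once per clonotype it was in 13 of 53 and 9 of 30 against 10 of 167 and 7 of 117. Cd8-gated cells without Pdcd1 had it in 11.7% and 10.2%, with intervals of 6.98 to 18.1 and 6.31 to 15.2. The 8-week interval barely clears the Pdcd1-positive one and the 16-week interval overlaps it. These intervals count the cells of 1 clone separately, and none was made per clonotype. TRBV3 was found in 13 of 73 (17.8%, 9.84 to 28.5) and 9 of 39 (23.1%, 11.1 to 39.3) Pdcd1-positive Cd8-gated cells against 3.40% and 3.73% of Cd4-gated cells and 6.55% and 7.59% of Cd8-gated cells without Pdcd1. On the Cd4 side TRAV5N-4 was found in 32 of 199 (16.1%) and 14 of 127 (11.0%) cells and in no Pdcd1-positive Cd8-gated cell of 66 and 31, which allows shares of up to 4.55% and 9.68% (3 cells of each total). TRBV15 was in 16.5% and 17.2% of the Cd4-gated against 1 of 73 and 2 of 39 Cd8-gated cells. TRBV3, TRAV5N-4 and TRBV15 are given per cell only, so cells of 1 clone count separately. For TRAV5N-4 and TRBV15 the Cd4-gated cells without Pdcd1 are not given beside them.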

How the data were processed

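The authors deposited raw UMI counts per gene and cell for the 2 RNA libraries and, for the 2 receptor libraries, UMI counts per assembled chain with clonotype names. The matrices carry software version 3.0.1, per the file headers, and the submitters' processing notes list build mm10 and the package Seurat without a role. All barcodes together held 8659371 and 8183747 UMIs at 8 and 16 weeks. No doublet caller was run, and cells with 2 or more beta chains were left out in an alternative.

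Gated cells were summed per library and tested in edgeR 4.0.16 (R 4.3.3) with TMM factors, a library block and genes with 20 or more UMIs. DESeq2 1.42.0, other filters, scalings and gates were alternatives, and shares came from Python 3.11.15 with scipy 1.17.1. Simulated counts with known changes were drawn with a wider spread than was fitted here. Lineage differences were recovered at 29% for 2-fold and 97% for 4-fold over 8187 genes. Interactions were recovered at 3% and 53% over 9683. Ratios in 1 library have 0.5 UMI added to each sum. The number of mice per library is not stated and the libraries differ in age. The p-values therefore measure the spread between these sums, which may be technical or go with age. In the main fit 1 spread was shared by all genes, so a p-value or SE does not measure a gene's own spread between libraries. Intervals and limits cover counting error only.

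The members and gene lists (253 of 261 symbols found) were chosen with earlier results of these data known, and some genes are not reported here. The Ccr7-positive background cells were chosen after seeing the data. Genes named for their size were the 12 largest ratios on each side among called genes with 50 or more UMIs. T cell receptor segment, ribosomal protein and mitochondrial genes were left out of that choice.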

Additional observations from a re-analysis of the deposited data

Results flagged for a closer look

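The lineage ratio (log2, Cd8-gated over Cd4-gated) differed between Pdcd1-positive and Pdcd1-undetected cells for 15 list members and named genes, by edgeR's interaction term with adjusted p under 0.05. Of all 9814 genes tested, 0.265% had such a call on the higher side and 0.173% on the lower side. As the lists were chosen with earlier results of these data known, the count is a description. The ratio was higher in Pdcd1-positive cells by 3.43 for Prss2, 2.55 for Eomes, 2.30 for Cd7, 1.76 for S100a4, 1.66 for Capg, 1.16 for Lgals1, 1.14 for Lag3 and 1.08 for Batf. It was also higher by 1.03 for Crip1, 1.02 for S100a6, 0.94 for Rgs1, 0.86 for S100a10, 0.78 for Itgb1 and 0.57 for Vim. For Il6ra the difference was -2.06.

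Rgs1 and Klf2 had counting intervals on opposite sides of 0 at the 2 ages. The Rgs1 log2 ratio was 0.46 at 8 and -0.53 at 16 weeks, and that of Klf2 was 0.56 and -0.71. With 1 library per age the difference between the ages was not tested. Of all genes tested, 22 had such opposite intervals.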

How the results depend on the processing

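Alternatives to the gates, filters, scalings and tool were run 1 at a time. The calls of 205 genes higher and 273 lower became 34 and 40 with DESeq2 and 64 and 90 with cells reduced to 1700 UMIs, and 135 were higher with a minimum of 50 UMIs. The 153 and 248 genes at 2-fold in both libraries became 872 and 412 with no minimum, 64 and 136 at 50 UMIs, 69 and 125 at 1700 UMIs per cell, and 403 and 584 at 1.5-fold. The 26 and 17 interaction calls became 47 and 33 with no minimum, 11 and 7 with DESeq2, and 44 and 29 without the top cell of each gene, an alternative chosen after seeing the data. The higher side was 40 under a stricter cell filter, and the lower side 37 without cells holding other cell types' UMIs and 11 at 1700 UMIs per cell. Fewer genes and UMIs enter at 50 UMIs and at 1700 UMIs per cell, and the cause of the other shifts was not tested. The Tcf7 share difference of -17.8 points in 1 draw at 8 weeks was -3.83 in the second, and 1.63 at 16 weeks was -12.8 at 2500 UMIs, -12.6 with all UMIs and -26.0 at 2 or more Pdcd1 UMIs.

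Of the ratios that changed sign, Cd74 was a called gene (log2 ratio -1.44) and the others were not called. With 2 or more Pdcd1 UMIs, Ccr7 was at -0.58, Id3 at -0.30, Klf2 at -0.18 and Bcl2 at -0.14. At 1700 UMIs, Cd74 was at 0.45 and Klf2 at -0.028. Without cells of other types' UMIs, Cd74 was at 0.58, Foxp1 at 0.012, Klf2 at -0.028 and Bcl2 at -0.035. Without cells with regulatory markers, Cd74 was at 0.91 and Klf2 at -0.0069. Without the top cell, Cd74 was at 0.084, Ccr7 at -0.063 and Bcl2 at -0.043. Without cells with 2 beta chains, Ccr7 was at -0.22 and Bcl2 at -0.14. With both Cd8 chains required, Klf2 was at -0.13 and Bcl2 at -0.039. Klf2 was at -0.0045 with no minimum and -0.0044 with library sizes, and Bcl2 at -0.031 under the stricter filter. With DESeq2 they were at -0.035 and -0.013, and without the library block, which pairs the gates of 1 library, Klf2 was at -0.045. With 1 library left out no residual degree of freedom remains, so each library's ratio is given as a value.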
